A study of Mus musculus with 36 samples.

Results

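The Zfp zinc-finger genes were followed in induced pluripotent stem (iPS) cell clones and embryonic stem (ES) cell lines of the mouse. The members were chosen by their name and selected on their highest signal: a measured probe whose annotation symbol is Zfp plus digits, with a maximum of at least 100 intensity units over the 36 arrays, leaving out Zfp42 and Zfp352 and keeping the probe with the highest mean for each gene. This gave 153 of the 235 genes so named on the array. Of the 36 samples, 30 were iPS clones made from mouse embryonic fibroblasts (MEFs) by overexpression of transcription factors. Sox2 and Oct4 were given to all of them, together with Klf4 and Tbx3 in 11 clones (OSKT), with Esrrb in 8 (OSE) or with Klf4 in 11 (OSK). The ES line D3, kept in MEF medium, had 2 replicates and the ES line R1, kept in medium for mouse ES cells, had 4, so that line and medium cannot be told apart between D3 and R1. OSKT thus differed from OSK by the added Tbx3, and OSE differed from OSK by Esrrb in place of Klf4. The vector, the strain and the sex of the cells are not given in the sources used here. The p-values rest on a spread pooled over all groups, between clones of a set and between replicates of an ES line. Those of D3 against R1 thus also rest on the iPS clones, and no p-value measures variation between ES lines.

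Zfp genes encode proteins with zinc fingers, most often of the C2H2 type, in which a zinc ion holds a short loop that can read DNA. A large share of mouse zinc-finger proteins also carry a KRAB domain, which binds the corepressor Trim28 (Kap1) and so brings histone H3 lysine 9 methylation and DNA methylation to its target. In ES cells such proteins are known for keeping retroelements silent and imprints in place, and their genes lie in clusters that grew by repeated duplication. The symbol is given by name and not by mechanism, so it also covers RNA-binding proteins, a ribosome sensor, a spindle protein and Zfp185, a LIM-domain protein. Domain counts per protein were not analysed here.

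Between 8675 and 9720 of the 18720 measured probes stood above background on each array. Of the 12 pluripotency markers, 11 were tested and all 11 were above background in most arrays of every group. Against R1, 4 of the 11 were lower and 2 higher in OSKT, 7 and 2 in OSE, and 6 and 2 in OSK. Between OSE and OSK, 7 were lower and 1 higher, beside 22.6% and 23.2% of all features. Of 8 tested trophoblast markers, 8 were higher than R1 in OSKT, 5 in OSE (1 lower) and 8 in OSK. Against R1, 25.8% to 28.7% of all features were higher and 27.9% to 29.9% lower. The part of such marker differences in the Zfp values was not tested. The mean of 21 tested fibroblast markers on the log2 scale was 9.84 ± 0.34 in OSKT clones, 10.52 ± 0.35 in OSE clones and 9.92 ± 0.40 in OSK clones, against 8.82 ± 0.01 in D3 and 9.47 ± 0.04 in R1 (SD). Most of these markers stood above background in every group (19 in OSKT, 21 in OSE, 20 in OSK, 16 in D3 and 19 in R1), and the part of fibroblast RNA in the Zfp values was not tested. An alternative fit named below took the fibroblast mean as a covariate. As that mean differs between the groups compared, calls kept or lost in that fit do not measure this part. Clones numbered 1 to 4 had the higher fibroblast mean in OSKT (10.14 to 10.37, against 9.40 to 9.65 in clones 5 to 11) and in OSK (10.25 to 10.48, against 9.36 to 9.88). Some clones of a set resembled each other as closely as R1 replicates did (6 of 55 pairs in OSKT, 3 of 28 in OSE and 7 of 55 in OSK). Averaging such arrays, one of the alternatives tried, leaves 6 OSKT, 5 OSE and 6 OSK samples and 1 each for D3 and R1. Levels are given as log2 of the background-corrected, quantile-normalized signal of a probe, and differences are those fitted by limma with their SE and a Benjamini-Hochberg adjusted p over all 10533 features tested.

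Of the 232 Zfp genes with a measured probe, the rule kept the 153 members by their highest signal, so the counts in this paragraph describe the choice and were not set against other genes. Of the members, 113 reached 100 intensity units in at least 1 array of every group, 78 did so on all 36 arrays, and 104 were above background on all 36. Another 12 reached it in 1 group only: 6 in OSKT, 3 in OSE, 2 in OSK, 1 in R1 and 0 in D3. The threshold was set on unscaled signals, and OSKT clone 4 was the brightest array. Its 75th percentile was 1057 intensity units, against 666 in R1 replicate 3, the next brightest. Zfp772 and Zfp169 had their highest signal on OSKT clone 4. Members that entered through 1 group stay in the counts of calls if tested, and the choice favours that group. Just inside the threshold were Zfp316 at 101.5, Zfp772 at 108.9 and Zfp169 at 109.8 intensity units, and just outside were Zfp811 at 99.3, Zfp775 at 90.6 and Zfp384 at 88.8. Zfp772 and Zfp952 were above background on 1 array each and were not tested, which left 151. The brightest probes belonged to Zfp638, Zfp131, Zfp639, Zfp655 and Zfp219, although probe brightness does not rank genes by transcript level. Clones of a set differed from each other by a median SD of 0.18 in OSKT, 0.17 in OSE and 0.18 in OSK per member on the log2 scale, against 0.08 in D3 and 0.10 in R1. Over all 10533 features tested the medians in the same order were 0.18, 0.19, 0.19, 0.07 and 0.10. The members were thus about as variable between clones as other genes. Zfp715 had a second probe above background, whose difference had the same sign in all 6 comparisons but was called in none.

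Against R1, more Zfp genes were lower than higher in each iPS set, whereas between the iPS sets more were higher in the set compared with OSK. A member was called where the adjusted p of limma's fit over all features was under 0.05. In OSKT against OSK, 51 of 151 tested members were called (33.8%, beside 35.5% of all features), 37 of them higher (24.5%, beside 19.5%) and 14 lower (9.27%, beside 16%). In OSE against OSK, 72 were called (47.7%, beside 45.8%), 52 higher (34.4%, beside 23.2%) and 20 lower (13.2%, beside 22.6%). In OSKT against R1, 88 were called (58.3%, beside 54.3%), 28 higher (18.5%, beside 26.4%) and 60 lower (39.7%, beside 27.9%). In OSK against R1, 90 were called (59.6%, beside 53.8%), 27 higher (17.9%, beside 25.8%) and 63 lower (41.7%, beside 28.0%). In OSE against R1, 97 were called (64.2%, beside 58.7%), 39 higher (25.8%, beside 28.7%) and 58 lower (38.4%, beside 29.9%). In D3 against R1, 16 were called (10.6%, beside 9.73%), 10 higher (6.62%, beside 4.63%) and 6 lower (3.97%, beside 5.10%). The share of Zfp genes that changed was therefore near that of all genes in each comparison, while the split between directions was not the same as theirs. This difference in split was not tested, since the members were chosen with results known.

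The median log2 difference over the tested members was 0.02 in OSKT against OSK, 0.09 in OSE against OSK, -0.18 in OSKT against R1, -0.17 in OSK against R1, -0.09 in OSE against R1 and 0.10 in D3 against R1. Over all features the medians were 0.00, 0.00, -0.00, 0.01, 0.01 and 0.03. In bulk samples, fewer cells that express a gene and less RNA per cell cannot be told apart. The 3 comparisons with R1 share its 4 arrays, and OSKT and OSE share the OSK clones. With near-identical arrays averaged, 19 members were called in OSKT against OSK (12.6%, beside 12.9% of all features) and 42 in OSE against OSK (27.8%, beside 28.8%). Against R1 that setting called 35 in OSKT (23.2%, beside 23.3%), 39 in OSK (25.8%, beside 22.7%), 45 in OSE (29.8%, beside 27.7%) and 1 in D3 (0.662%, beside 0.560%). The D3 count was 2 without D3 replicate 2. Scaling the arrays to a common median in place of quantiles gave 19 higher and 74 lower members in OSKT against R1, beside 2027 higher and 3701 lower features, and 14 higher and 79 lower in OSK against R1, beside 1777 and 3969, with the median of all features at -0.10 and -0.12. The authors' scaled table gave 36 higher and 22 lower members in OSE against OSK, beside 1767 higher and 2482 lower features, and 3 higher and 8 lower members in D3 against R1, beside 302 and 549. The D3 count was 58 with array weights (38.4%, beside 33.8%), 48 with those 2 groups fitted alone (31.8%, beside 31.8%) and 40 with the fibroblast mean as a covariate (26.5%, beside 24.4%), so that it moved with all features. Among clones 1 to 4 alone, 33 members were called in OSKT against OSK (21.9%, beside 28.1%).

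**Figure D1:**
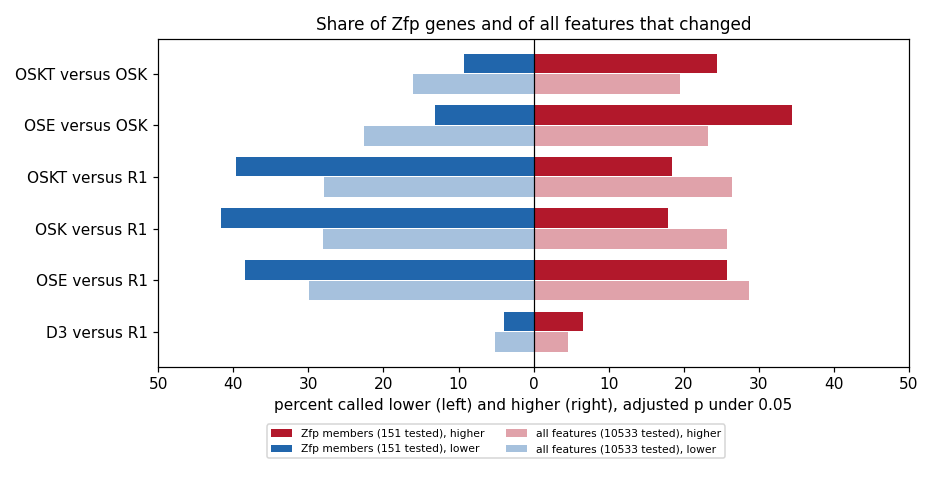
Percent of the 151 tested Zfp genes (solid bars) and of all 10533 features (pale bars) called lower (left of 0) and higher (right of 0) at an adjusted p under 0.05, for 6 comparisons. Against R1, 39.7% of the members were lower in OSKT, 38.4% in OSE and 41.7% in OSK, beside 27.9%, 29.9% and 28.0% of all features.

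The widest gap between iPS clones and R1 was at Zfp951, a zinc-finger gene on chromosome 5, which was low in every clone and high in every ES array. Zfp951 ranged from 6.85 to 7.25 with a median of 7.05 in OSKT clones, from 7.12 to 7.59 with a median of 7.32 in OSE clones and from 6.88 to 7.56 with a median of 7.17 in OSK clones, against 8.68 and 8.65 on the D3 arrays and 9.85, 9.77, 9.73 and 9.67 on the R1 arrays. No clone of any set reached the D3 values, and both D3 arrays lay below all 4 R1 arrays. Zfp951 was 6.49-fold lower in OSKT than in R1 (log2 difference -2.70 ± 0.09 SE, adjusted p = 3.26e-24), 5.36-fold lower in OSE (-2.42 ± 0.09, adjusted p = 6.27e-22) and 6.00-fold lower in OSK (-2.59 ± 0.09, adjusted p = 1.20e-23). In D3 it was 2.13-fold lower (-1.09 ± 0.13, adjusted p = 1.85e-07).

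Zfp871 and Zfp870, neighbours on chromosome 17, were also low in the clones. Zfp871 ranged from 6.44 to 7.12 with a median of 6.80 in OSKT clones, from 7.77 to 8.17 with a median of 7.92 in OSE clones and from 6.46 to 7.07 with a median of 6.61 in OSK clones, against 9.49 and 9.36 on the D3 arrays and 9.25, 9.35, 9.05 and 9.23 on the R1 arrays. The OSE clones lay between the other clones and the ES lines without overlapping either, and only 3 of 11 OSKT and 1 of 11 OSK clones were above background. By the fit Zfp871 was 5.35-fold lower in OSKT, 2.38-fold lower in OSE and 5.83-fold lower in OSK than in R1, and with the dim arrays raised to the lowest signal above background 4.62-fold in OSKT and 4.73-fold in OSK (adjusted p = 3.22e-20, 5.77e-12 and 6.70e-21 in that order of sets). OSE was 2.45-fold higher than OSK by the fit, and 1.99-fold with the dim OSK arrays raised in the same way (adjusted p = 1.01e-14). Zfp870 was above background in 0 OSKT, 3 of 8 OSE and 0 OSK clones, against both D3 and all 4 R1 arrays. It averaged 6.46 ± 0.17 in OSKT, 7.02 ± 0.24 in OSE and 6.61 ± 0.21 in OSK, against 7.82 ± 0.17 in D3 and 8.16 ± 0.07 in R1 (SD). It was thus at least 2.28-fold lower in OSKT than in R1 (adjusted p = 6.78e-15) and at least 2.29-fold lower in OSK (adjusted p = 8.38e-14), such a bound being taken against the lowest signal above background on each array.

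Zfp940, on chromosome 7, ran the other way. Zfp940 ranged from 8.16 to 8.81 with a median of 8.59 in OSKT clones, from 8.16 to 8.70 with a median of 8.25 in OSE clones and from 8.11 to 8.64 with a median of 8.47 in OSK clones, against 7.05 and 6.66 on the D3 arrays and 6.63, 6.54, 6.44 and 6.91 on the R1 arrays. It was above background in all 30 clones and on 0 of 4 R1 arrays, so its excess is a bound: at least 3.11-fold in OSKT, 2.61-fold in OSE and 2.83-fold in OSK (adjusted p = 1.01e-16, 1.84e-14 and 7.90e-16). Zfp367 ranged from 9.42 to 10.24 with a median of 9.74 in OSKT clones, from 9.34 to 9.91 with a median of 9.50 in OSE clones and from 9.57 to 9.95 with a median of 9.85 in OSK clones, against 8.35 and 8.42 on the D3 arrays and 8.24, 8.15, 8.18 and 8.19 on the R1 arrays. Again no clone overlapped the ES arrays. Zfp367 was 3.01-fold higher in OSKT than in R1 (adjusted p = 9.41e-15), 2.59-fold in OSE (adjusted p = 1.58e-12) and 3.05-fold in OSK (adjusted p = 7.92e-15).

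The windows of 250 bases before the annotated starts of Zfp951, Zfp871, Zfp940 and Zfp367 are shown from RefSeq (GRCm38.p6). They run 5′ to 3′ on the gene's strand, with CpG, the base pair that DNA methylation uses, in capitals. The array values do not measure methylation.
Zfp951, chr5:104860028-104860277, minus strand: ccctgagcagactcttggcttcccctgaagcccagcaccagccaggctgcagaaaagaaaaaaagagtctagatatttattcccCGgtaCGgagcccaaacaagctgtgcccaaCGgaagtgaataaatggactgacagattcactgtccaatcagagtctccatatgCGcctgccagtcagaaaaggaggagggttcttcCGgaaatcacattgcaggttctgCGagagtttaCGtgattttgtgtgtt
Zfp871, chr17:32788288-32788537, minus strand: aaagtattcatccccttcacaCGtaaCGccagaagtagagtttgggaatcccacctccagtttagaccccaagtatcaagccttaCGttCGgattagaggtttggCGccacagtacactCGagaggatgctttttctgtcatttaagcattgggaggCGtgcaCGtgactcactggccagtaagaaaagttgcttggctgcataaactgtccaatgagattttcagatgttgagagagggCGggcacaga
Zfp940, chr7:29853649-29853898, minus strand: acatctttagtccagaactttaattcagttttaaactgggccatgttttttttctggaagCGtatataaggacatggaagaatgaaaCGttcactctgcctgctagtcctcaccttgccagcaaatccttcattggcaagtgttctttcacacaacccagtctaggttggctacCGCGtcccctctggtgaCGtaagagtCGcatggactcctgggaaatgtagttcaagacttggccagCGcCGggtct
Zfp367, chr13:64153200-64153449, minus strand: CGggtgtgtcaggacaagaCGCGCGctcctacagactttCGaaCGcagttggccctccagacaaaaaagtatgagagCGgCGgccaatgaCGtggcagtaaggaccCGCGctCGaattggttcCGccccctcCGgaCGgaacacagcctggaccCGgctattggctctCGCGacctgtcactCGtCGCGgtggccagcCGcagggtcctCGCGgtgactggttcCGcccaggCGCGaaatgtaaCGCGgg
The window of Zfp367 holds 29 CpG, against 7 for Zfp951, 9 for Zfp871 and 8 for Zfp940. A relation between CpG count and signal was not tested over the members. Zfp870 had no window in the table used.

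Further members followed in each direction against R1. Zfp341, whose human counterpart activates STAT3 transcription, averaged 9.33 ± 0.21 in OSKT, 8.89 ± 0.28 in OSE and 9.17 ± 0.24 in OSK clones, against 7.98 ± 0.04 in R1 (SD), without overlap. Its excess over R1 was 2.56-fold in OSKT (adjusted p = 4.97e-11), 1.88-fold in OSE (adjusted p = 5.43e-07) and 2.28-fold in OSK (adjusted p = 1.07e-09). Zfp429, with 1 of 4 R1 arrays above background, was 2.06-fold higher in OSKT, 1.68-fold in OSE and 1.93-fold in OSK once the dim R1 arrays were raised to the lowest signal above background. Zfp235 was 1.85-fold higher in OSKT, 2.29-fold in OSE and 1.86-fold in OSK. For these 2 genes the largest adjusted p was 4.59e-10.

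Zfp94, Zfp532, Zfp459 and Zfp704 were lower in every clone than in any R1 array. Zfp94 was 2.61-fold lower in OSKT, 1.68-fold in OSE and 2.54-fold in OSK. Zfp532, which in human cells belongs to a complex with ZMYND8, was 2.23-fold lower in OSKT, 2.08-fold in OSE and 2.38-fold in OSK. Zfp459 was 2.03-fold lower in OSKT, 2.77-fold in OSE and 2.17-fold in OSK. Zfp704 was 2.22-fold lower in OSKT, 2.41-fold in OSE and 2.19-fold in OSK, while D3 at 9.59 and 9.72 lay above R1. Over these 12 values the largest adjusted p was 1.47e-06.

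**Figure D2:**
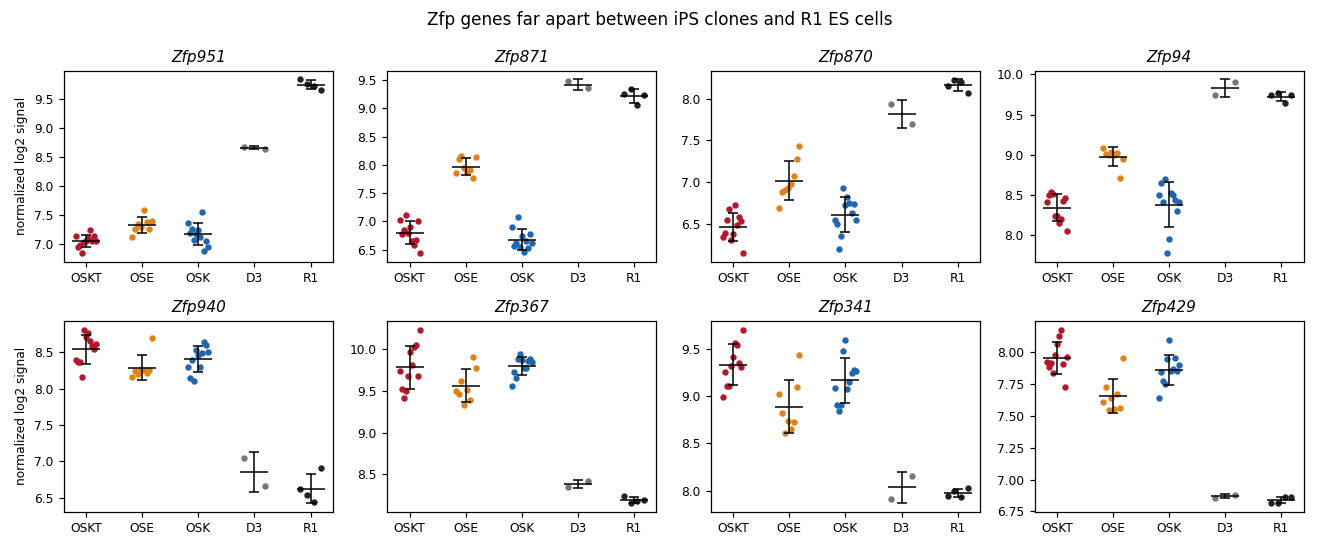
Normalized log2 signal of 8 Zfp genes on each array (points), with the mean and SD of each group (bars), for 11 OSKT, 8 OSE and 11 OSK clones, 2 D3 and 4 R1 arrays. Scales differ between panels. In the upper row the clones lie below R1 (Zfp951 reaches 7.59 in the highest clone, against 9.67 or more in R1), and in the lower row above it.

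Among Zfp proteins known to guard imprints and retroelements, 3 of 5 tested members were higher in OSKT than in OSK and 0 lower, beside 19.5% and 16% of all features. In OSE against OSK 0 were higher and 2 lower, beside 23.2% and 22.6% of all features. Zfp57, a KRAB protein that keeps imprinted control regions methylated in early embryos and ES cells, had the larger difference in both comparisons. Zfp57 ranged from 9.34 to 10.33 with a median of 10.09 in OSKT clones, from 7.84 to 9.05 with a median of 8.46 in OSE clones and from 8.55 to 9.68 with a median of 9.22 in OSK clones, against 10.02 and 10.06 on the D3 arrays and 10.51, 10.62, 10.20 and 10.56 on the R1 arrays. The OSE clones were the lowest and overlapped OSK, the OSKT clones overlapped the ES lines, and every OSK and OSE clone lay below R1. Zfp57 was 1.67-fold higher in OSKT than in OSK (0.74 ± 0.15, adjusted p = 0.000222) and 1.62-fold lower in OSE than in OSK (-0.69 ± 0.16, adjusted p = 0.000657). Relative to R1 it was 1.52-fold lower in OSKT (adjusted p = 0.0129), 4.10-fold lower in OSE (adjusted p = 4.40e-10) and 2.54-fold lower in OSK (adjusted p = 9.16e-07). The call of OSKT against R1 was lost with near-identical arrays averaged (adjusted p = 0.319) and with the authors' scaled table (0.0702).

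The excess of Zfp57 in OSKT over OSK was larger among the higher clone numbers. It was 0.20 on the log2 scale among clones 1 to 4 and 1.05 among clones 5 to 11, and the difference between the 2 ranges passed the test (adjusted p = 0.0219). Such a difference between ranges was called for 14 members (9.27%), beside 14.8% of all features. Among clones 1 to 4 alone the excess of Zfp57 was not called (adjusted p = 0.260). The deficit of OSE against OSK was -0.96 among clones 1 to 4 and -0.47 among clones 5 and above. The latter was called in the fit that held both ranges (adjusted p = 0.0334), but not with those clones fitted alone (0.0551). The difference between the ranges was not called for OSE (adjusted p = 0.361). The deficit of OSKT against R1 was -1.05 with clones 1 to 4 and -0.34 with clones 5 to 11 (adjusted p = 0.134). The fibroblast mean also differed between these ranges, as given above, and its part was not tested within them. In a fit with the fibroblast mean as a covariate the call of Zfp57 between OSKT and OSK was kept.

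Zfp809, which recognises the primer binding site of murine leukaemia virus and brings Trim28 to it, ordered the sets in the same way. Zfp809 ranged from 8.65 to 9.32 with a median of 8.86 in OSKT clones, from 7.49 to 8.13 with a median of 7.91 in OSE clones and from 8.33 to 8.74 with a median of 8.58 in OSK clones, against 8.56 and 8.61 on the D3 arrays and 9.11, 9.24, 9.77 and 9.24 on the R1 arrays. No OSE clone overlapped OSK, and the OSKT and OSK clones overlapped. Zfp809 was 1.29-fold higher in OSKT than in OSK (adjusted p = 0.00130, and 0.0953 among clones 1 to 4) and 1.59-fold lower in OSE than in OSK (adjusted p = 4.36e-07). Against R1 it was 1.35-fold lower in OSKT (adjusted p = 0.00203), 2.78-fold lower in OSE (adjusted p = 2.31e-12) and 1.74-fold lower in OSK (adjusted p = 5.33e-07). The OSKT call was lost with near-identical arrays averaged (adjusted p = 0.0787), a setting that leaves 1 R1 sample.

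Zfp819, which with Trim28 represses retroelements, averaged 9.99 ± 0.28 in OSKT, 9.43 ± 0.27 in OSE and 9.57 ± 0.09 in OSK, against 10.37 ± 0.01 in D3 and 9.93 ± 0.07 in R1. OSKT exceeded OSK by 0.42 ± 0.09 (adjusted p = 0.000409), with 0.10 among clones 1 to 4 and 0.61 among clones 5 to 11 (adjusted p of the difference = 0.0214). The difference of OSE from OSK, -0.14 ± 0.10, was not called (adjusted p = 0.253). Zfp708, a repressor of a mouse endogenous retrovirus, and Zfp661 did not pass between the iPS sets, with log2 differences of 0.01 and -0.31 for OSKT and 0.06 and -0.04 for OSE against OSK. The median of the 5 members was 0.36 in OSKT and -0.14 in OSE against OSK, and -0.33, -0.50 and -0.36 in OSKT, OSE and OSK against R1, beside medians of all features between -0.00 and 0.01. Against R1, 0 members were higher and 2 were lower in OSKT, 3 in OSE and 4 in OSK. Of all features 26.4%, 28.7% and 25.8% were higher and 27.9%, 29.9% and 28.0% lower, in that order of sets. With near-identical arrays averaged, the calls of Zfp819 in OSE (adjusted p = 0.104) and OSK (adjusted p = 0.358) and of Zfp708 in OSK (adjusted p = 0.517) were lost, and that of Zfp708 was also lost under 8 of the 15 settings that leave out a single array.

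**Figure D3:**
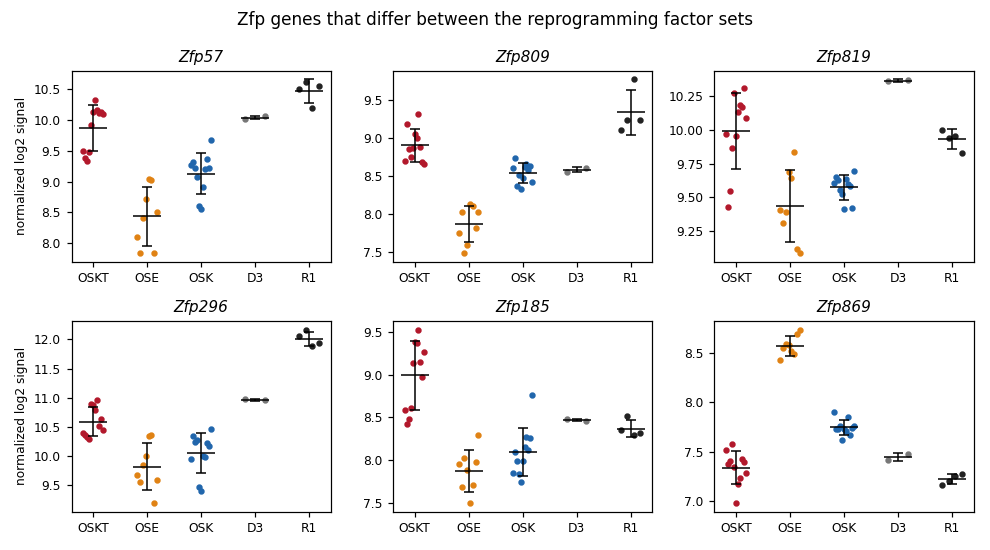
Normalized log2 signal of 6 Zfp genes on each array (points) with group mean and SD (bars), for OSKT, OSE and OSK clones and the D3 and R1 lines. Scales differ between panels. Zfp57 and Zfp809 were lowest in OSE clones, Zfp185 was highest in OSKT clones, and Zfp869 was highest in OSE clones, where it did not fall below 8.43.

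Of 5 tested members linked to pluripotency and reprogramming, 2 were lower in OSKT than in R1, 4 were lower in OSE and 4 in OSK, and 1 was higher in each set. Of all features 27.9%, 29.9% and 28.0% were lower and 26.4%, 28.7% and 25.8% higher, in that order of sets. Among the 5, Zfp296, an ES cell protein that promotes reprogramming, showed the widest gap. Zfp296 ranged from 10.29 to 10.96 with a median of 10.51 in OSKT clones, from 9.19 to 10.35 with a median of 9.75 in OSE clones and from 9.39 to 10.46 with a median of 10.17 in OSK clones, against 10.97 and 10.95 on the D3 arrays and 12.05, 12.17, 11.88 and 11.94 on the R1 arrays. No clone reached R1, and of all clones only OSKT clone 8 reached the lower D3 array. Zfp296 was 2.68-fold lower in OSKT than in R1 (adjusted p = 1.17e-08), 4.57-fold in OSE (adjusted p = 1.46e-12), 3.90-fold in OSK (adjusted p = 7.42e-12) and 2.07-fold in D3 (adjusted p = 0.00633). OSKT exceeded OSK 1.46-fold (adjusted p = 0.00105), a call that was lost among clones 1 to 4 (adjusted p = 0.256) and with near-identical arrays averaged (adjusted p = 0.0558).

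The promoter window of Zfp296 holds the octamer ATGCAAAT, the DNA word that Oct4 binds, on the reverse strand. It starts 111 bases before the annotated gene start. The stretch around it is shown on the gene's strand with the octamer in capitals (RefSeq, GRCm38.p6).
Zfp296, chr7:19577156-19577203, plus strand: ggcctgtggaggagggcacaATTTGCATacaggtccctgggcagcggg
Over both strands, 4 of the 122 members with a window (3.28%) held this octamer, beside 435 of 27025 windows of the same length (1.61%). The genes of those 27025 windows were not chosen on signal, as the members were. A match is a description of the letters and not a bound site.

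Zfp217, which in mouse ES cells sustains pluripotency genes, averaged 7.95 ± 0.15 in OSKT, 7.64 ± 0.15 in OSE and 7.61 ± 0.17 in OSK, against 7.72 ± 0.20 in D3 and 8.15 ± 0.10 in R1. It was 1.27-fold higher in OSKT than in OSK (adjusted p = 0.000170, and 0.0543 with near-identical arrays averaged). Zfp281, a partner of the Nanog network, was 1.23-fold higher in OSE than in OSK without overlap (adjusted p = 1.08e-05), and against R1 it was 1.37-fold lower in OSKT, 1.13-fold in OSE and 1.38-fold in OSK. Zfp13, on the same list, was higher than R1. Its log2 difference was 0.79 ± 0.09 in OSKT (adjusted p = 6.13e-09), 0.66 ± 0.10 in OSE (adjusted p = 4.68e-07) and 0.58 ± 0.09 in OSK (adjusted p = 2.56e-06). Zfp398, whose human counterpart acts in pluripotency, differed from R1 by -0.24 in OSE (adjusted p = 0.00449) and -0.32 in OSK (adjusted p = 0.000233), and its difference in OSKT, -0.16, was not called (adjusted p = 0.0564). Between OSKT and OSK 4 of the 5 were higher and 0 lower (median 0.21), beside 19.5% and 16% of all features. The excess of Zfp13 and Zfp398 turned to -0.04 and -0.02 among clones 1 to 4, and was lost with near-identical arrays averaged (adjusted p = 0.0863 and 0.0619), as were the calls of Zfp398 against R1 in OSE (0.173) and OSK (0.0681) and of Zfp281 in OSE (0.321).

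Zfp names outside the C2H2 repressors include 8 tested proteins of RNA, the ribosome and the spindle. In each iPS set against R1, 4 of the 8 were higher, and 1 was lower in OSKT, 3 in OSE and 3 in OSK. Of all features 26.4%, 28.7% and 25.8% were higher and 27.9%, 29.9% and 28.0% lower, in that order of sets. Zfp106, an RNA-binding protein needed by motor neurons, was 1.61-fold higher in OSKT (adjusted p = 5.91e-13), 1.33-fold in OSE (adjusted p = 1.45e-07) and 1.34-fold in OSK (adjusted p = 3.67e-08). It averaged 11.01 ± 0.09 in OSKT, 10.74 ± 0.08 in OSE and 10.75 ± 0.07 in OSK, against 10.32 ± 0.07 in R1, with no clone below the R1 arrays. Zfp207 (BuGZ), which loads a spindle checkpoint protein, was 1.39-fold higher in OSKT, 1.34-fold in OSE and 1.23-fold in OSK. Zfp36 (tristetraprolin), which drives decay of mRNAs with AU-rich elements, was 1.28-fold higher in OSKT, 1.60-fold in OSE and 1.27-fold in OSK. Zfp593, a ribosome assembly factor, was 1.20-fold higher in OSKT, 1.78-fold in OSE and 1.32-fold in OSK. With a common median in place of quantiles, the OSKT and OSK calls of Zfp36 and Zfp593 and the OSK call of Zfp207 were lost (adjusted p from 0.0629 to 0.634), and with near-identical arrays averaged the same calls were lost (from 0.111 to 0.232). The common median also lowered the OSK difference of Zfp106 to 0.20 and the OSKT difference of Zfp207 to 0.29 on the log2 scale. The fibroblast covariate lowered the differences of Zfp593 to 0.14 in OSKT (adjusted p = 0.0650), 0.49 in OSE and 0.26 in OSK, and that of Zfp36 to 0.45 in OSE.

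Zfp638, whose human counterpart silences unintegrated retroviral DNA, was lower than R1 in each set. Zfp638 ranged from 12.28 to 12.50 with a median of 12.35 in OSKT clones, from 12.23 to 12.44 with a median of 12.33 in OSE clones and from 11.90 to 12.36 with a median of 12.14 in OSK clones, against 13.11 and 13.18 on the D3 arrays and 13.13, 12.89, 12.94 and 13.00 on the R1 arrays. All clones lay below all ES arrays. Its log2 difference from R1 was -0.62 ± 0.06 in OSKT (adjusted p = 1.07e-10), -0.66 ± 0.06 in OSE (adjusted p = 7.55e-11) and -0.83 ± 0.06 in OSK (adjusted p = 1.14e-13). Zfp598, the ubiquitin ligase that senses collided ribosomes, was lower than R1 in OSE (-0.40 ± 0.09, adjusted p = 0.000358) and in OSK (-0.32 ± 0.09, adjusted p = 0.00216), with -0.06 in OSKT (adjusted p = 0.611). Zfp326, of a complex that couples transcription to splicing, differed from R1 by -0.26 ± 0.11 in OSE (adjusted p = 0.0364) and -0.45 ± 0.10 in OSK (adjusted p = 0.000273). Zfp346, which binds double-stranded RNA, was not called in any comparison. In OSKT against OSK, 5 of the 8 were higher and 0 lower (median 0.19), beside 19.5% and 16% of all features. Those higher were led by Zfp326 at 0.33 ± 0.07 and Zfp598 at 0.27 ± 0.06. In OSE against OSK 5 were also higher and 0 lower (median 0.15), beside 23.2% and 22.6% of all features. The largest were Zfp593 at 0.43 ± 0.07 and Zfp36 at 0.33 ± 0.07, which were 0.23 and 0.20 with the fibroblast mean as a covariate. With near-identical arrays averaged, Zfp326, Zfp638, Zfp598 and Zfp207 were no longer called between OSKT and OSK (adjusted p = 0.0607, 0.0630, 0.0674 and 0.0516), and against R1 those of Zfp326 and Zfp598 in OSE and OSK were lost as well (lowest adjusted p = 0.135). Between OSE and OSK the calls of Zfp326 (0.20 ± 0.08, adjusted p = 0.0464) and Zfp207 (0.13 ± 0.05, adjusted p = 0.0397) lay near the threshold: of 35 settings, 16 ended the first and 17 the second, among them 11 and 10 of the 19 that leave out a single clone. The call of Zfp638 was lost with near-identical arrays averaged (0.0845), with the fibroblast covariate (0.105), among clones 5 and above (0.123) and with the authors' scaled table (0.119).

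Of 5 tested members known from development, Zfp521 was higher and Zfp516 lower in OSE than in OSK, beside 23.2% higher and 22.6% lower of all features. Zfp521, a regulator of neural and blood progenitors, ranged from 7.50 to 8.35 with a median of 7.77 in OSE clones. In OSK clones it ranged from 6.96 to 7.71 with a median of 7.25, and R1 read 6.90, 7.04, 7.17 and 6.65, so that OSE and OSK overlapped. It was 1.49-fold higher in OSE than in OSK (adjusted p = 0.00288), a call that was lost with the fibroblast mean as a covariate (0.18, adjusted p = 0.361). Zfp516, which acts in brown fat, was 1.68-fold lower in OSE than in OSK (adjusted p = 3.35e-05), averaging 8.71 ± 0.45 against 9.46 ± 0.29, and its log2 difference of -0.75 was -0.27 with that covariate (adjusted p = 0.00850). Against R1 the covariate moved Zfp516 to -0.36 in OSE, against -1.20 without it, and to -0.09 in OSK, against -0.45, which ended the OSK call (adjusted p = 0.410). Zfp536, a repressor of neural differentiation, was above background on the 4 R1 arrays and on no other, and it entered the members through R1 alone. It was at least 1.44-fold lower in OSKT, 1.40-fold in OSE, 1.45-fold in OSK and 1.44-fold in D3, differences that this choice favours. Zfp148 was higher in OSKT than in OSK (0.17 ± 0.06, adjusted p = 0.0232, and 0.486 with near-identical arrays averaged), and Zfp335, which matters for T cells and neural progenitors, was called in no comparison. Against R1, 1 of the 5 was lower in OSKT, 2 in OSE and 2 in OSK, and 1 was higher in OSE. Of all features 27.9%, 29.9% and 28.0% were lower in that order of sets, and 28.7% were higher in OSE. The call of Zfp521 in OSE was lost with the covariate (adjusted p = 0.356). It was also lost with near-identical arrays averaged (log2 difference 0.87), a setting that leaves 1 R1 sample. The OSK call of Zfp516 was also lost with near-identical arrays averaged (0.524), with the authors' scaled table (0.0986), among clones 5 and above (0.0972) and without R1 replicate 2 or 4.

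**Figure D4:**
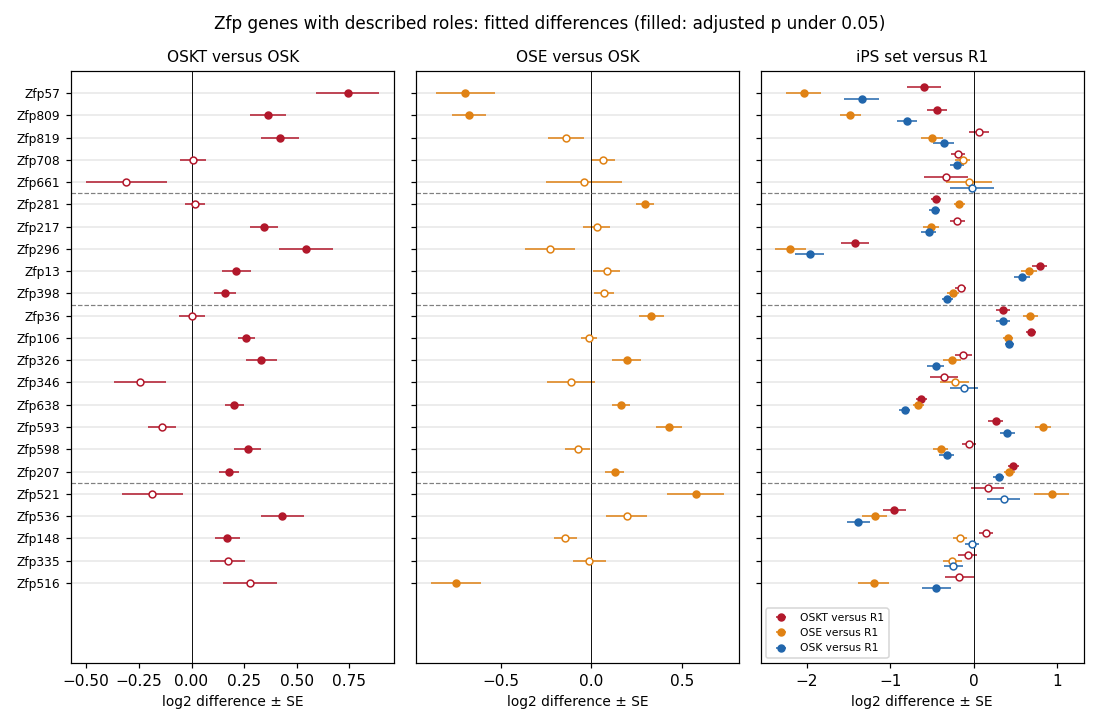
Fitted log2 differences with SE for the 23 tested Zfp genes with described roles, in OSKT against OSK (left), OSE against OSK (middle) and each iPS set against R1 (right). Filled points passed an adjusted p under 0.05, and dashed lines part the imprint and retroelement, pluripotency, RNA and development groups from top to bottom. Zfp57 and Zfp809 lie right of 0 in OSKT against OSK and left of 0 in OSE against OSK.

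The largest excess of OSKT over OSK among the members was at Zfp185, the LIM-domain protein of the actin cytoskeleton. Zfp185 ranged from 8.42 to 9.53 with a median of 9.14 in OSKT clones. In OSK clones it ranged from 7.74 to 8.77 with a median of 8.09. The sets overlapped through 1 OSK clone, while OSE clones ranged from 7.50 to 8.30 with a median of 7.92 and R1 read 8.35, 8.52, 8.29 and 8.32. The difference was 1.86-fold (0.89 ± 0.12, adjusted p = 1.84e-06) and was called under each alternative run, at 0.58 among clones 1 to 4. Zfp185 and Zfp275 (0.44 ± 0.10, adjusted p = 0.00124, and 0.101 with near-identical arrays averaged) are X-linked. The median log2 difference of 295 tested X-linked genes was 0.21 between OSKT and OSK, beside -0.00 for 8936 autosomal genes, and the part of the X chromosome in these 2 results was not tested. Zfp24, on chromosome 18, was 1.36-fold higher in OSKT (adjusted p = 1.46e-05) and 1.39-fold higher in OSE (adjusted p = 5.72e-06) than in OSK, whose clones ranged from 7.06 to 7.66 with a median of 7.48. Zfp536 was called higher in OSKT than in OSK, but it was below background in both, so no fold is given.

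Zfp869 had the smallest adjusted p among members lower in OSKT than in OSK. Zfp869 ranged from 6.98 to 7.58 with a median of 7.37 in OSKT clones. In OSK clones it ranged from 7.61 to 7.91 with a median of 7.73. These clones did not overlap, and the difference was 1.33-fold (-0.41 ± 0.05, adjusted p = 1.02e-06). Zfp358 was 1.41-fold lower (adjusted p = 0.000109) and Zfp1 1.37-fold lower (adjusted p = 0.000102). Zfp691 was 1.30-fold lower (adjusted p = 9.76e-05), with a log2 difference of -0.02 among clones 1 to 4 and -0.59 among clones 5 to 11 (adjusted p of the difference = 0.000509). Zfp979 was 1.30-fold lower (adjusted p = 0.00150, and 0.0659 with near-identical arrays averaged). Zfp395 was 1.47-fold lower by the fit (adjusted p = 0.00120), with 1 of 11 OSKT and 6 of 11 OSK clones above background. It reached the threshold for members in OSK alone, so that this direction was favoured by the choice. Of the 23 named members called between OSKT and OSK, 13 were not called among clones 1 to 4, where adjusted p ran up to 0.888. Beside those already named they were Zfp395 (0.617), Zfp106 (0.0599), Zfp598 (0.232), Zfp207 (0.165), Zfp148 (0.0822) and Zfp536 (0.0606).

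Zfp869, Zfp358 and Zfp1, low in OSKT, were high in OSE. Zfp869 ranged from 8.43 to 8.74 with a median of 8.57 in OSE clones, above every other array, and was 1.78-fold higher than in OSK (adjusted p = 2.05e-13). Zfp358 ranged from 9.41 to 9.62 with a median of 9.51 in OSE clones and from 8.26 to 9.26 with a median of 8.77 in OSK clones, and was 1.72-fold higher without overlap (adjusted p = 1.07e-07). Zfp1 was 1.54-fold higher (adjusted p = 1.34e-06). These 3 genes share the OSK clones as the comparison for both sets. Also higher in OSE were Zfp276 (1.68-fold, adjusted p = 4.13e-05), Zfp866 (1.66-fold, adjusted p = 7.21e-06) and Zfp330 (1.59-fold, adjusted p = 4.76e-09), each with a median of OSE clones above the highest OSK clone. The log2 difference of Zfp276, 0.75, was 0.29 with the fibroblast mean as a covariate (adjusted p = 0.0163) and 0.46 among clones 1 to 4.

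Beside Zfp57, Zfp809 and Zfp516, the largest falls in OSE against OSK were at Zfp28, Zfp655 and Zfp710. Zfp28 ranged from 7.47 to 8.01 with a median of 7.78 in OSE clones. In OSK clones it ranged from 8.15 to 8.76 with a median of 8.48. Without overlap, Zfp28 was 1.63-fold lower (adjusted p = 2.58e-09). Zfp655 was 1.45-fold lower (adjusted p = 0.000252), averaging 11.51 ± 0.33 against 12.05 ± 0.33, with OSE clones 7 and 8 at 11.99 and 12.09 inside the OSK range. Zfp710 was 1.35-fold lower (adjusted p = 0.000489), again with OSE clones 7 and 8 highest, at 10.76 and 10.72. With the fibroblast mean as a covariate both calls were lost (-0.18, adjusted p = 0.110, and -0.15, adjusted p = 0.162).

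Between the ES lines 16 members were called, a share (10.6%) near that of all features (9.73%). This count rests on 2 D3 arrays and changed with the fit, as given above. Higher in D3 than in R1 were Zfp865 (0.76 ± 0.19, adjusted p = 0.00713), Zfp628 (0.66 ± 0.14, adjusted p = 0.000957) and Zfp473, whose human counterpart acts in histone pre-mRNA processing (0.65 ± 0.14, adjusted p = 0.00181). Zfp523, Zfp30 and Zfp941 were higher by 0.60, 0.55 and 0.54 on the log2 scale. Zfp598 was higher by 0.53 ± 0.13 (adjusted p = 0.00648). Zfp628 read 7.78 and 7.81 in D3, against 7.06, 7.15, 7.16 and 7.15 in R1. Lower in D3 beside Zfp951 and Zfp296 were Zfp809 (-0.76 ± 0.18, adjusted p = 0.00372), Zfp459 (-0.54 ± 0.15, adjusted p = 0.0180) and Zfp217 (-0.43 ± 0.14, adjusted p = 0.0397). With either D3 array left out, Zfp296, Zfp809, Zfp459, Zfp217, Zfp865, Zfp523, Zfp941, Zfp598 and Zfp536 were no longer called, and without D3 replicate 2 neither were Zfp473 and Zfp30. Of the 13 named members called here, 12 were lost with near-identical arrays averaged, which leaves 1 sample in each line, and the highest adjusted p among the alternatives was 0.631 for Zfp296 and 0.249 for Zfp628.

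Many members are neighbours. By RefSeq names, 40 of the 153 (26.1%) lie on chromosome 7, beside 8.57% of tested genes, 15 on chromosome 17 and 12 on chromosome 13. In all, 59 members fall into 14 groups of 3 or more, in steps of at most 500 kb. Neighbours did not share a direction in several of these groups, from which the examples here were chosen after their values were seen. On chromosome 7 Zfp235 had log2 differences from R1 of 0.89, 1.19 and 0.90 in OSKT, OSE and OSK, while Zfp94 beside it had -1.38, -0.75 and -1.34, and Zfp180 of the same group had -0.13, -0.33 and -0.29. Elsewhere on that chromosome Zfp940 stood beside Zfp27, whose differences were -0.45, -0.09 and -0.48 in the same order of sets. On chromosome 13 Zfp429 was higher than R1, most of whose arrays were not above background for it, and its neighbour Zfp459 lower with -1.02, -1.47 and -1.12. By contrast Zfp871 and Zfp870 on chromosome 17 both fell, and on chromosome 9 Zfp653, Zfp809, Zfp599 and Zfp810 had negative values in every set: -0.42, -0.44 and -0.49 for Zfp653, -0.55, -0.62 and -0.71 for Zfp599 and -0.63, -0.71 and -0.62 for Zfp810. On chromosome 8, Zfp869 had 0.11, 1.36 and 0.52, Zfp866 -0.51, 0.32 and -0.41 and Zfp868 -0.60, -0.23 and -0.64, with the highest value in OSE for each. Duplicated zinc-finger genes resemble each other in sequence, so probes of neighbours may share signal, and that was not tested.

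**Figure D5:**
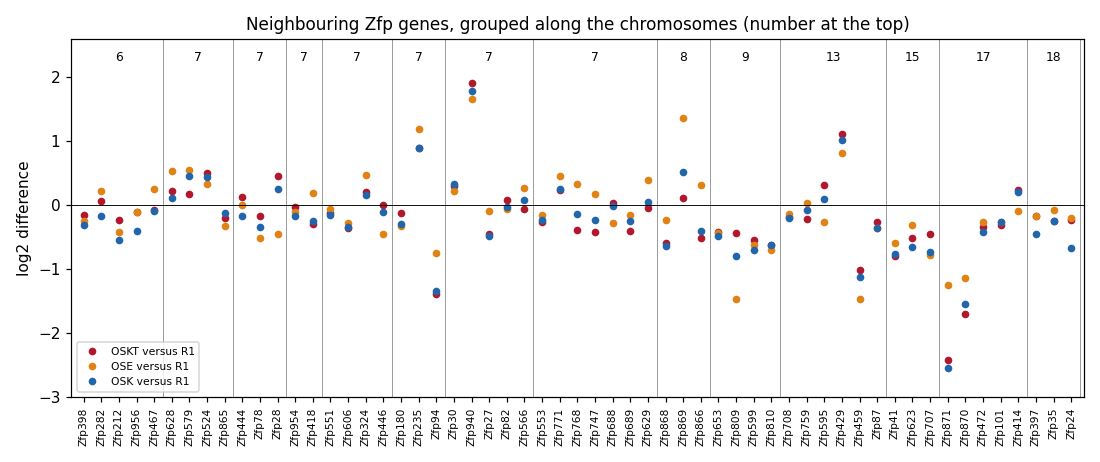
Log2 differences from R1 of the tested members of 14 groups of neighbouring Zfp genes, in OSKT, OSE and OSK clones (points), in order along each chromosome (number at the top, vertical lines between groups). The chromosome 17 group holds the lowest values, at Zfp871 and Zfp870, and Zfp940 on chromosome 7 the highest.

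The members' promoter windows had a median of 12 CpG in 250 bases for the 122 members matched, beside 6 for all 27025 genes. Their median GC content was 55.6%, beside 52%. The members were chosen on signal and the 27025 genes were not, so the sets are unlike. These differences, and the shares of words below, cannot be laid to the Zfp name. Apart from the octamer, words bound by the reprogramming factors had shares close to or below those of all windows. On both strands, the Sox word ACAATGG stood in 4 windows (3.28%, beside 3.07%), the Klf word GGGTGTG in 8 (6.56%, beside 6.85%), the Esrrb word AAGGTCA in 2 (1.64%, beside 4.05%) and the T-box word GGTGTGA in 4 (3.28%, beside 3.31%). The Klf and T-box words overlap in their letters and can fall on the same bases. With 4 windows or fewer for most words, these shares are descriptions without a test.

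The cofactors of KRAB zinc-finger proteins changed in both directions. Of 28 listed corepressor and heterochromatin genes, 14 were tested. In each iPS set against R1 6 of the 14 were higher and 4 lower, beside 25.8% to 28.7% and 27.9% to 29.9% of all features. The smallest p-values in OSKT against R1 were those of Hdac1 (0.59 ± 0.07, adjusted p = 1.47e-08), Atf7ip (0.50 ± 0.07, adjusted p = 2.31e-07) and Chd4 (0.38 ± 0.06, adjusted p = 7.78e-07), all higher, and Smarcad1 (-0.70 ± 0.11, adjusted p = 7.88e-07) and Hdac2 (-0.64 ± 0.12, adjusted p = 1.51e-05), both lower. Hdac1 and Hdac2 are histone deacetylases, Atf7ip is a partner of the H3 lysine 9 methyltransferase Setdb1, and Chd4 and Smarcad1 are chromatin remodelers. In OSE against R1 they were Smarcad1 (-1.13 ± 0.11, adjusted p = 1.05e-10), Chd4 (0.57 ± 0.06, adjusted p = 4.45e-10), the methyltransferase cofactor Dnmt3l (-1.07 ± 0.14, adjusted p = 3.29e-08) and the DNA methyltransferase Dnmt3b (1.18 ± 0.16, adjusted p = 9.59e-08). In OSK against R1 they were Smarcad1 (-1.02 ± 0.11, adjusted p = 4.34e-10), Trim28 (-0.51 ± 0.07, adjusted p = 3.47e-07), Chd4 (0.36 ± 0.06, adjusted p = 1.92e-06) and Atf7ip (0.41 ± 0.07, adjusted p = 7.47e-06). Trim28, named for its role as the shared corepressor, was also lower than R1 in OSKT (-0.28 ± 0.07, adjusted p = 0.00158) and in OSE (-0.43 ± 0.08, adjusted p = 1.11e-05).

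Between OSKT and OSK 5 of the cofactors were higher and 3 lower, beside 19.5% and 16% of all features. The smallest p-values were those of Dnmt1 (-0.46 ± 0.08, adjusted p = 4.05e-05), Hdac2 (-0.47 ± 0.09, adjusted p = 6.71e-05) and Uhrf1, which guides Dnmt1 (-0.27 ± 0.05, adjusted p = 0.000157), all lower, and of Trim33 (0.21 ± 0.05, adjusted p = 0.000536) and Trim28 (0.23 ± 0.05, adjusted p = 0.00108), both higher. In OSE against OSK 2 were higher, Chd4 (0.21 ± 0.05) and Dnmt3b (0.42 ± 0.12), and 2 lower, Dnmt3l (-0.61 ± 0.10) and Hdac1 (-0.20 ± 0.06). In D3 against R1 2 were higher, Chd4 (0.38 ± 0.08) and Dnmt3b (0.93 ± 0.23), and 1 lower, Atf7ip (-0.32 ± 0.10). Of all features 23.2% were higher and 22.6% lower in OSE against OSK, and 4.63% and 5.10% in D3 against R1.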

How the data were processed

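Total RNA (500 ng) was labelled as biotin cRNA and read on Illumina bead arrays with BeadStudio, per the labels' protocols. The main values were the unscaled intensities deposited by the authors, which had been corrected for background within each array, as 25.4% to 29.6% of measured probes per array were below 0. A second deposited table holds intensities that the authors scaled between arrays by a method not given in the sources used here. Array precision is limited by the number of arrays. Of 24613 probes, 5893 held near-constant values between -5.5 and 15.5 on all 36 arrays and were set aside. Signals went through normexp (offset 16) and quantile normalization before log2 was taken. The background cut of an array was the 99th percentile of a normal distribution around 0 whose SD came from the signals below 0 (45.2 to 90.8 intensity units), and probes above it on at least 4 arrays were tested, with the brightest probe kept for each member.

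Group means over all 36 arrays were fitted with limma 3.58.1 in R 4.3.3 (eBayes with intensity trend), and p-values were adjusted by Benjamini-Hochberg over 10533 features. Members, role lists and tests were chosen with earlier results of these data known. Genes named were the 6 highest and 6 lowest called members of each comparison, the role lists, the brightest members and those beside the threshold, and of the corepressors those with the smallest p in each comparison, with Trim28 also named for its role. Promoter windows came from RefSeq (GRCm38.p6), where 122 of 153 members matched and the first of several starts was used. Protein domain counts were not analysed here. Alternatives changed the background correction, offset, scaling, dim-probe filter, variance model, array weights, samples fitted, clone range, fibroblast covariate, near-identical arrays, replicate block and each replicate in turn.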

Additional observations from a re-analysis of the deposited data

Results flagged for a closer look

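Of 118 sets of levels examined (a named gene in R1 or in OSE clones), 11 held an array whose gap to the nearest other array took most of the range, and chance alone flags about 1 in 20. On the log2 scale, OSE clone 8 stood above the other OSE clones for Zfp1 (10.31), Zfp940 (8.70), Zfp429 (7.95) and Zfp217 (7.94), and below them for Zfp661 (6.43) and Zfp346 (7.44). OSE clone 7 stood below the other OSE clones for Zfp24 (7.51) and Zfp94 (8.71). R1 replicate 3 stood below the other R1 arrays for Zfp330 (10.97) and Zfp335 (7.33), and R1 replicate 1 did so for Zfp628 (7.06). OSE clone 8 was the dimmest of the 36 arrays (75th percentile 337 intensity units) and had the fewest probes above background (8675). R1 replicate 3 had the most such probes (9720). The part of array brightness in these gaps was not tested.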

How the results depend on the processing

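Members called are given with their share and that of all features. With near-identical arrays averaged, a setting with fewer samples and 1 sample each of D3 and R1, they were 19 in OSKT against OSK (12.6%, beside 12.9%), 42 in OSE against OSK (27.8%, beside 28.8%), and against R1 35 in OSKT (23.2%, beside 23.3%), 45 in OSE (29.8%, beside 27.7%), 39 in OSK (25.8%, beside 22.7%) and 1 in D3 (0.662%, beside 0.560%). Among clones 1 to 4, 33 (21.9%, beside 28.1%) were called between OSKT and OSK, and Zfp13 (-0.038) and Zfp398 (-0.017) against OSK and Zfp819 (-0.23) in OSKT against R1 changed sign, for which the cause was not tested. In D3 against R1 the count was 58 with array weights (38.4%, beside 33.8%), 48 with only these groups fitted (31.8%, beside 31.8%) and 40 with the fibroblast covariate (26.5%, beside 24.4%). Leaving out 1 array at a time gave 43 to 53 members in OSKT against OSK, 62 to 78 in OSE against OSK, 79 to 91 in OSKT, 89 to 96 in OSE and 80 to 93 in OSK against R1, and 2 to 14 in D3 against R1, with 6 without D3 replicate 1 and 2 without D3 replicate 2.

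Of 191 named results, 145 kept their side of the threshold and 46 were lost with near-identical arrays averaged, 168 kept it with the authors' scaled table, 176 with a common median and 173 with the fibroblast covariate, while 2751 of 2845 kept it when 1 array was left out. Of the 129 named results called, the log2 difference was over 1.5 times larger in 32 with the authors' scaled table and in 30 with no background correction, and over 1.5 times smaller in 19 with the fibroblast covariate and, of 116, in 13 with clones 1 to 4. The covariate ended the OSE calls of Zfp655, Zfp710, Zfp638, Zfp207 and Zfp521 against OSK and of Zfp521, Zfp281, Zfp326 and Zfp598 against R1, the OSK calls of Zfp516 and Zfp708 and the OSKT call of Zfp593 against R1, and the D3 call of Zfp941. Leaving out a single array ended, beside the D3 calls and those given in the report, Zfp148 in OSKT against OSK (without OSKT replicate 6 or 7 or OSK replicate 1 or 7), Zfp281 in OSE against R1 (without OSE replicate 5 or R1 replicate 1, 2 or 4) and Zfp326 in OSE against R1 (without OSE replicate 6 or 7 or any R1 array).

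The replicate numbers are clone numbers. Same-numbered OSKT and OSK clones correlated at 0.01 to 0.63 in their deviations from the group means, with 9 of 11 pairs over 0.1, and OSE and OSK clones at -0.26 to 0.59, with 5 of 8 over 0.1. Of the clones, 2 of 11 in OSKT and 2 of 8 in OSE correlated best with the OSK clone of their own number, and low clone numbers share a higher fibroblast mean. As some pairs did not exceed 0.1, the numbers were not taken to pair the samples. A fit with the replicate block called 61 members in OSKT against OSK (40.4%, beside 41% of all features), 67 in OSE against OSK (44.4%, beside 46.5%), 93 in OSKT (61.6%, beside 59.2%), 105 in OSE (69.5%, beside 63.6%) and 93 in OSK against R1 (61.6%, beside 59.2%), and 16 in D3 against R1 (10.6%, beside 11%).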
